A study of Mus musculus with 8 samples.

Results

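Matrix metalloproteinases (MMPs) and their tissue inhibitors (TIMPs) were examined in activated muscle stem cells (ASCs), the progenitors that leave quiescence after muscle injury. The 10 genes Mmp2, Mmp3, Mmp9, Mmp11, Mmp14, Mmp15, Mmp19, Timp1, Timp2 and Timp3 belong to these families but do not make up the whole of them. The table held 18877 gene symbols, and 9 further MMP and TIMP genes among them are given below as a separate list. The design held 1 contrast, with 4 wild-type and 4 mfn2-/- libraries, and asked which transcripts differ when the mitofusin 2 gene is deleted. All mice, controls included, carried a mitochondrial Dendra2 reporter switched on by the tamoxifen-inducible Pax7-Cre(ERT2) driver, and in mfn2-/- mice the gene of the mitochondrial fusion protein mitofusin 2 was deleted through that driver. Every mouse was given tamoxifen at 75 mg/kg daily for 5 days by intraperitoneal injection, and the tibialis anterior received 50 uL of 1.2% BaCl2 2 days after the last dose. Living cells (DAPI-) that were CD34- and Dendra2+ were sorted 2 days after injury, which limits the sample to cells of the Pax7 lineage as far as the gate holds. The labels give no age for the mice and do not say whether each library came from its own mouse, so p-values measure the spread between these libraries only.

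MMPs are zinc-dependent endopeptidases that cut collagens, laminins, proteoglycans and many cell surface and signaling proteins. Most are secreted as inactive proenzymes, and a few are anchored in the plasma membrane. TIMPs bind the active site and block it, and TIMP2 also has a second role: with membrane-type MMP14 it forms the surface complex in which pro-MMP2 is cleaved to its active form. In injured muscle these enzymes take part in opening the basal lamina around myofibers and in remodeling of the matrix through which muscle progenitors migrate. Transcript levels do not report proteolytic activity, which depends on activation and inhibition of the proteins.

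Depth ranged from 1880464 to 7508215 reads per library, and 1 read was worth 0.534 to 2.27 normalized reads. Mfn2 itself was lower in every mfn2-/- library, with 104.0 to 172.4 normalized reads against 201.7 to 244.7 in wild-type libraries (log2 change -0.88, limma adjusted p 0.0848, exact permutation p = 0.0286). The mfn2-/- mean was 54.9% of the wild-type mean, and limma did not call this fall. From 4 Y-linked genes, 0 reads were found in replicates 1 and 2 of wild-type and 3 and 4 of mfn2-/- mice, and 807 to 2336 in the other 4 libraries. Each group thus had 2 libraries of either kind, and changes are also given within each kind. The 9 myogenic markers were present in both groups, with a summed level of 10759 to 15610 normalized reads in wild-type and 28799 to 40372 in mfn2-/- libraries, and 3 of them (Sdc4, Des and Myod1) were called higher. The other 6 were not called, with log2 changes of 0.10 (Pax7), 0.07 (Myf5), 0.43 (Cdh15), 0.26 (Fgfr4), -0.19 (Chodl) and -0.87 (Itga7). The summed markers of connective tissue cells were lower in mfn2-/- libraries. The summed level of 10 fibroadipogenic markers was 54299 to 64337 in wild-type and 4931 to 8984.5 in mfn2-/- libraries (8 of 10 called lower, most abundant Col3a1), and that of 8 tenocyte markers was 36938 to 58436.5 against 306 to 407 (8 of 8 called lower, most abundant Fmod). No marker of these lists was at 0 reads in all libraries of both groups. Macrophage markers summed to 66.8 to 259 against 72.7 to 152 (1 of 5 tested called lower, Cx3cr1), neutrophil markers to 0.817 to 13.7 against 7.33 to 46.4 (none abundant enough to test), and endothelial markers to 1098.5 to 1522 against 1273 to 1837 (0 of 8 called by limma). The other tested macrophage markers, all weak, were not called, with log2 changes of 3.30 (Mrc1), 2.57 (Csf1r), 0.52 (Lyz2) and -0.28 (Cd68). Of 6 mural markers tested, Pdgfrb and Cspg4 were called lower and Abcc9 higher, with sums of 3514.5 to 4621.5 against 2393 to 3688.

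Expression of the MMP and TIMP genes was lower or not called different in mfn2-/- ASCs. Mmp2, Mmp14 and Timp2, the 3 components of the pro-MMP2 activation complex, fell by 2.82, 0.90 and 1.91 on the log2 scale. The 8 members with a mean of at least 10 normalized reads were tested. Of these, 3 were called lower and 0 higher by limma at an adjusted p under 0.05, where 6.36% of all 11754 genes tested were called lower and 3.99% higher. By edgeR, 2 were lower and 0 higher (9.85% of all genes called in either direction), and by DESeq2 4 were lower and 1 higher (14.9%). Mmp3, Mmp15, Mmp19, Timp1 and Timp3 were not called, and Mmp9 and Mmp11 were too weak to test.  The median log2 change of the 8 was -0.64, beside -0.16 over all genes tested. The members were chosen with earlier results of these data known, so the values over all genes are a reference and not a test. The groups had no overlap for 4 of the 8, with Mmp2, Mmp14 and Timp2 lower and Mmp19 higher, and 12.2% and 7.36% of all genes tested had no overlap in those directions. In bulk libraries, fewer cells of one type and less RNA per cell cannot be told apart. The fibroadipogenic and tenocyte marker sums fell together with Mmp2, Mmp14 and Timp2, and the part of those cells in these changes was not tested.

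**Figure D1:**
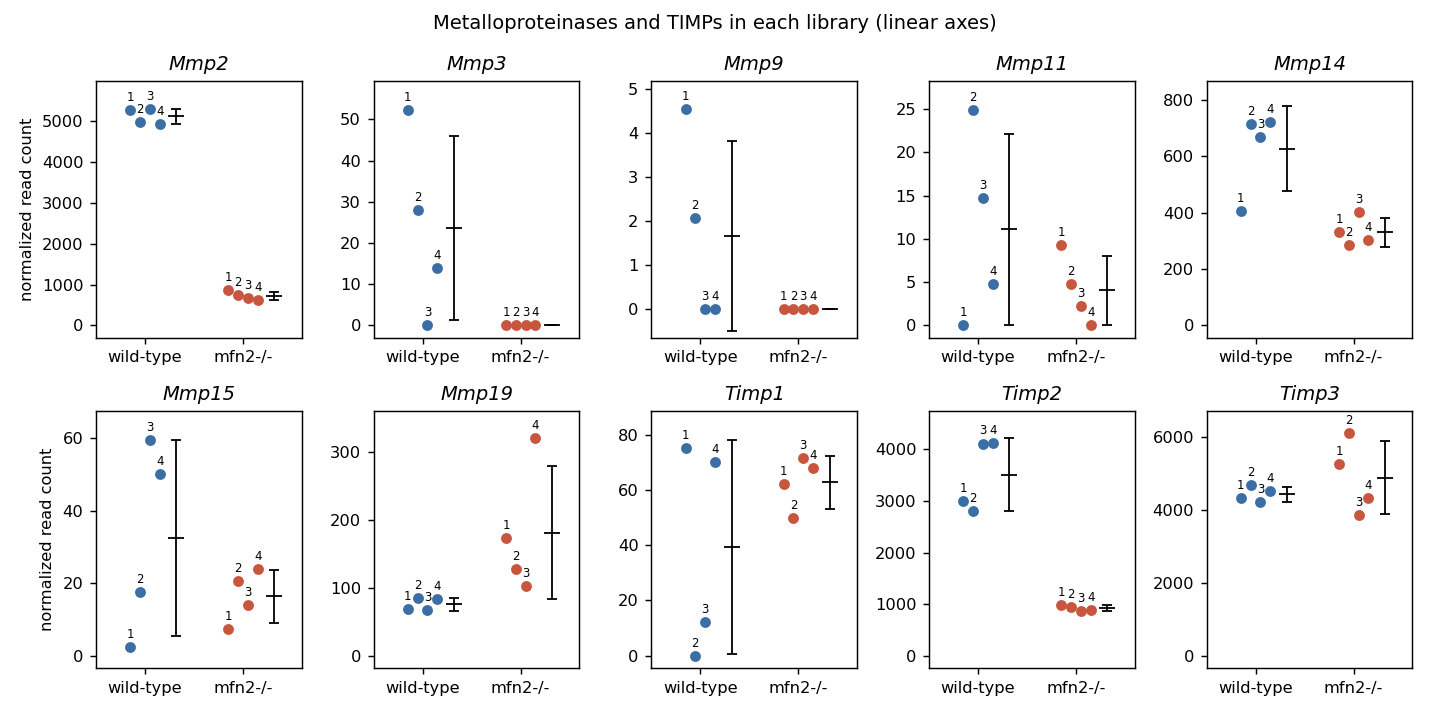
Normalized reads of the 10 genes in each library, 1 panel per gene with its own linear axis that includes 0. Points are libraries, numbers are replicate numbers, and bars are means with SD (n = 4 per group), whose lower arm can pass below 0 for weak genes. The wild-type libraries of Mmp2 sit between 4941 and 5296 and those of mfn2-/- between 632 and 871, while those of Timp3 overlap.

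Mmp2 encodes the secreted gelatinase A, which degrades denatured collagen and basement membrane collagen IV. Its level was 5272, 4975, 5296 and 4941 normalized reads in wild-type replicates 1 to 4 and 871, 736, 672 and 632 in mfn2-/- replicates 1 to 4. All wild-type libraries lay in a narrow band far above all mfn2-/- libraries. The means were 5121 ± 189 and 728 ± 105 (SD, n = 4 each), a 7.04-fold difference. On the log2(value + 1) scale the change was -2.82 (SE 0.17, 95% interval -3.18 to -2.46, limma adjusted p 1.83e-07, exact permutation p = 0.0286, the smallest that 4 against 4 libraries can give). Among the 11754 genes Mmp2 ranked 136 by mean level and 16 by limma p. Mmp2 changed by -2.67 between the libraries with Y-linked reads and by -2.97 between those without, and no alternative took its call away.

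The related gelatinase B, Mmp9, is a product chiefly of leukocytes in injured tissue. It had 4.55 and 2.07 normalized reads in wild-type replicates 1 and 2, which are 2 reads each, and 0 in every other library. All 8 libraries were at or under 3 reads, so a difference in Mmp9 was not detectable at this depth. Gelatinase transcript in these libraries was therefore almost wholly Mmp2.

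Membrane-type MMPs are anchored at the cell surface. Mmp14, the activator of pro-MMP2 and itself a collagenase, had 404.8, 715.5, 667 and 721 normalized reads in the wild-type libraries and 330.0, 287, 402 and 302 in the mfn2-/- libraries. The ranges did not overlap, but wild-type replicate 1 at 404.8 stood close to mfn2-/- replicate 3 at 401.6, a gap smaller than the worth of 2 reads in that wild-type library. Means were 627 ± 150 and 330.2 ± 50.9, a 1.90-fold difference. The log2 change was -0.90 (SE 0.24, 95% interval -1.42 to -0.37, limma adjusted p 0.0325, exact permutation p = 0.0286), with -1.17 in libraries with Y-linked reads and -0.63 in those without. This call was the least stable of the 3. It was lost in 10 of 21 alternatives, among them edgeR (adjusted p 0.0531) and the fits without wild-type replicates 2, 3 or 4 (0.085, 0.0957 and 0.102) or mfn2-/- replicates 1 or 2 (0.0685 and 0.0883), while the log2 change stayed between -1.11 and -0.82. Mmp15, a second membrane-type enzyme, had 2.27, 17.6, 59.6 and 50.2 normalized reads in wild-type and 7.33, 20.5, 14.0 and 23.8 in mfn2-/- libraries. The wild-type libraries scattered across the whole mfn2-/- range. Its log2 change of -0.38 (95% interval -2.80 to 2.05, limma adjusted p 0.868) had no stable sign, since it was 0.14 without wild-type replicate 3 and 0.06 without wild-type replicate 4. Within the libraries with Y-linked reads it was -2.06 and within the others 1.30.

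TIMP2 is the inhibitor that bridges MMP14 and pro-MMP2. Timp2 had 2999.7, 2804, 4115 and 4131 normalized reads in the wild-type libraries and 987.5, 942, 864 and 894 in the mfn2-/- libraries. Its lowest wild-type value was well above its highest mfn2-/- value, and the mfn2-/- libraries were the tighter group. The means of 3513 ± 709.6 and 922 ± 54.3 differed 3.81-fold, with a log2 change of -1.91 (SE 0.18, 95% interval -2.31 to -1.51, limma adjusted p 2.56e-05, exact permutation p = 0.0286). The change was -2.10 in libraries with Y-linked reads and -1.72 in the others, and the call was kept in all 21 alternatives. Of the wild-type level, 14.2% of Mmp2, 26.2% of Timp2 and 52.7% of Mmp14 was left in mfn2-/- ASCs. The 8 fibroadipogenic markers called lower were left at 0.397% (Lum) to 29.9% (Gsn), and the 2 not called, Dpt and Ly6a, at 44.7% and 295.3%.

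Timp3 encodes the inhibitor that binds to the extracellular matrix and also blocks several ADAM proteases. It was among the more abundant transcripts of both groups, ranking 72 of the 11754 genes by mean level, and had 4321, 4683, 4219.7 and 4514 normalized reads in the wild-type libraries and 5263, 6099, 3849 and 4325 in the mfn2-/- libraries. Mfn2-/- replicates 1 and 2 were above all wild-type libraries, and replicates 3 and 4 fell within or below their range. The means of 4434 ± 206 and 4884 ± 1001 gave a log2 change of 0.12 (SE 0.19, 95% interval -0.29 to 0.52, limma adjusted p 0.746, exact permutation p = 0.457). The lower bound of that interval lies above the changes of Timp2 (-1.91) and Mmp14 (-0.90). The libraries with Y-linked reads gave 0.38 and the others -0.14, a difference with an unadjusted interaction p of 0.0165 and a limma adjusted p of 0.274. Of the 8 tested members, 1 (Timp3) had an unadjusted interaction p under 0.05, as did 12.0% of all genes, and 0 had an adjusted one, where 1.47% of all genes did.

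Timp1, the soluble inhibitor induced by many inflammatory signals, was weak and uneven in wild-type ASCs. Its values were 75.1, 0, 12.2 and 69.98 normalized reads there and 62.0, 49.8, 71.5 and 67.8 in the mfn2-/- libraries. The mfn2-/- libraries agreed closely, while wild-type replicates 2 and 3 were below all of them, replicate 4 was among them and replicate 1 above them. The log2 change of 1.95 (95% interval -0.70 to 4.60, limma adjusted p 0.360, exact permutation p = 0.400) became 0.61 without wild-type replicate 2, the library at 0 reads.

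**Figure D2:**
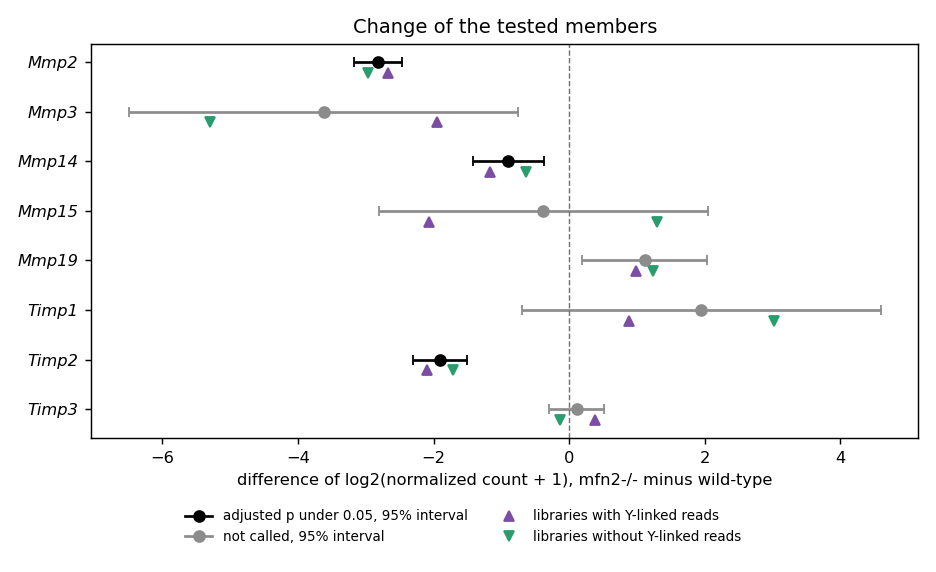
Log2 change, mfn2-/- over wild-type, of the 8 tested genes on the log2(value + 1) scale, with 95% intervals from limma. Triangles show the change within libraries with and without reads from Y-linked genes (2 against 2). The intervals of Mmp2, Timp2 and Mmp14 lie wholly below 0, that of Timp3 (-0.29 to 0.52) includes 0, and that of Mmp19 (0.19 to 2.04) lies above 0 although its adjusted p was 0.123.

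MMP3, a stromelysin, cuts proteoglycans, laminin and fibronectin and also activates other pro-MMPs. Mmp3 had 52.3, 28.0, 0 and 13.9 normalized reads in the wild-type libraries and 0 in each mfn2-/- library, or 76 reads in all against 0. Wild-type replicate 3, at 0, lay with the mfn2-/- libraries. The wild-type mean of 23.55 (SD 22.3) was 7.80-fold the mean floor of 3 reads per library in the mfn2-/- group. That ratio leaves out the spread of the wild-type libraries, and the 95% interval of the log2 change was -6.50 to -0.75. The limma adjusted p was 0.109 and the exact permutation p 0.143. DESeq2 (adjusted p 0.00755) and limma without wild-type replicate 3 (0.0386) called Mmp3, which was too weak to be tested without wild-type replicate 1 or 2. Mmp11, stromelysin 3, is known from stromal cells around tumors and in remodeling tissue. It had 0, 24.9, 14.7 and 4.81 normalized reads in the wild-type and 9.34, 4.74, 2.21 and 0 in the mfn2-/- libraries. These ranges overlapped, and the exact permutation test gave p = 0.486.

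Mmp19 encodes a secreted enzyme active on basement membrane proteins, and it was the 1 member with every mfn2-/- library above every wild-type library. The wild-type libraries had 68.2, 85.0, 67.0 and 82.8 normalized reads and the mfn2-/- libraries 173, 128, 102 and 321. Mfn2-/- replicate 4 was the highest and the most distant from the rest. With means of 75.8 ± 9.48 and 181 ± 97.6 the difference was 2.39-fold, and the log2 change of 1.12 (SE 0.43, 95% interval 0.19 to 2.04) gave a limma adjusted p of 0.123 and an exact permutation p of 0.0286. Mmp19 thus did not pass over all genes, although it did with DESeq2 (adjusted p 0.0467) and with library weights (0.84, adjusted p 0.0428). Without mfn2-/- replicate 4 the log2 change was 0.80. The changes within the 2 kinds of library were 0.99 and 1.24. In the GENCODE M21 annotation of GRCm38, 789 of the 3533 exon bases of Mmp19 lie opposite Tmem198b, with a mean of 67.0 normalized reads in the wild-type and 23.6 in the mfn2-/- group. Whether strand was used in counting is not given in the sources used here, so reads of those bases cannot be told apart. Likewise 1733 of 8144 exon bases of Timp3 lie opposite Syn3, which averaged 2.78 and 2.37 normalized reads.

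Levels of different genes were compared per kilobase of exon (union of annotated exons). Among the 7 MMPs, Mmp2 made up 91.0% ± 1.56 of the summed level in wild-type ASCs and 66.0% ± 6.77 in mfn2-/- ASCs (SD, n = 4). Mmp14 took 6.32% ± 1.57 and 17.1% ± 3.62, and Mmp19 took 1.29% ± 0.188 and 15.5% ± 7.95. Mmp2 remained the most abundant in every library, at 89.5% to 93.0% of wild-type and 56.2% to 70.9% of mfn2-/- sums. Mmp14 and Mmp19 held second place in different mfn2-/- libraries, since Mmp19 was ahead only in replicate 4, with 27.2% against 15.2%. The level per kilobase of Mmp2 was 1519 ± 56.1 in wild-type and 215.9 ± 31.0 in mfn2-/- ASCs, and that of Mmp14 was 105 ± 25.2 and 55.4 ± 8.53.

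**Figure D3:**
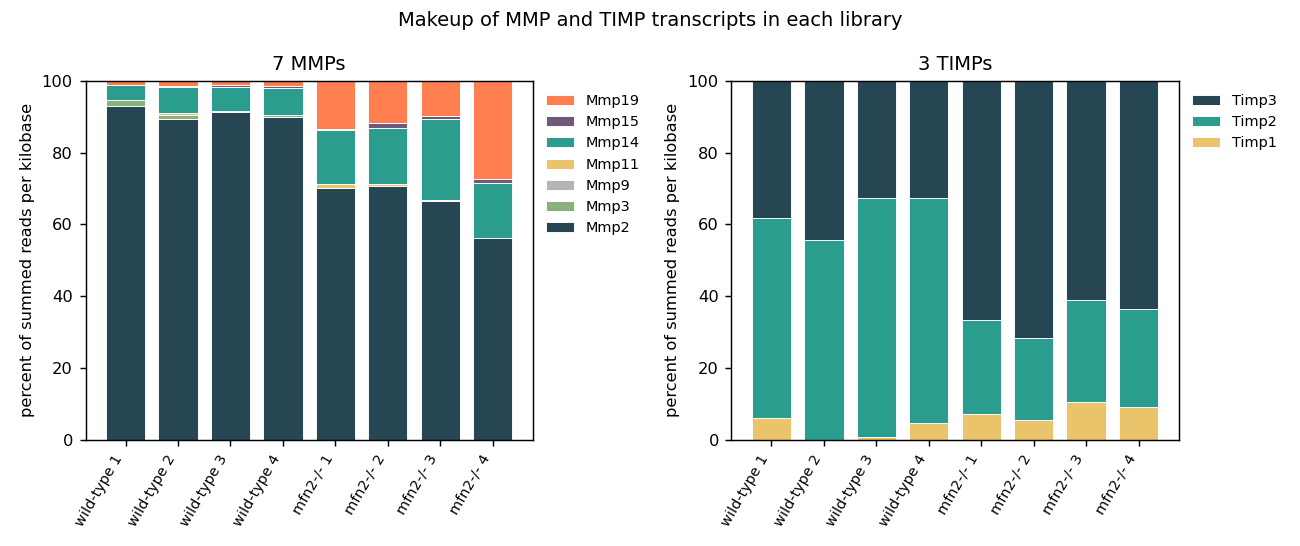
Share of each gene in the summed normalized reads per kilobase of the 7 MMPs (left) and the 3 TIMPs (right), in percent, with 1 stacked bar per library. The Mmp2 share falls from 89.5% or more in wild-type to 70.9% or less in mfn2-/- libraries, and the Timp3 share rises from 44.4% or less to 61.0% or more.

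Per kilobase of union exon, the order of the inhibitors was reversed between the groups. Timp2 led with 60.1% ± 5.42 of the 3 TIMPs per kilobase in wild-type ASCs and held 26.3% ± 2.38 in mfn2-/- ASCs. Timp3 held 37.0% ± 5.60 and 65.7% ± 4.56, although its own level per kilobase was 544.5 ± 25.3 and 599.7 ± 123. Timp1 took 2.91% ± 2.94 and 8.02% ± 2.21. The ratio of Timp3 to Timp2 per kilobase was 0.689, 0.799, 0.491 and 0.523 in wild-type and 2.55, 3.10, 2.13 and 2.31 in mfn2-/- libraries. The mean wild-type ratio was 1.03 with the longest transcript as the length and 1.31 without length correction, so the wild-type order depends on the length used. The ratio of Mmp2 to Timp2 went from 2.03, 2.05, 1.49 and 1.38 to 1.02, 0.904, 0.899 and 0.817. Summed over members, the 7 MMPs stood to the 3 TIMPs as 1.13 ± 0.139 in wild-type and 0.365 ± 0.0473 in mfn2-/- ASCs. This ratio was 0.993 and 0.298 with the longest transcript as the length and 0.741 and 0.219 without length correction (alternatives chosen after seeing the data), so whether it passed 1 in wild-type ASCs depended on the length used. These shares and ratios are descriptions of the values tested above and were not tested themselves.

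Promoter sequences were compared between members that fell, Mmp14 and Timp2, a member that was not called, Timp3, and the weak Mmp3. RefSeq promoter windows of the GRCm38.p6 assembly were matched for 7 of the 10 members, and Mmp2, Mmp9 and Mmp19 are not among them. The 250 bases before the annotated start are printed 5' to 3' on the gene's strand, and capitals mark matches to 4 motifs searched on both strands. These were the GC box GGGCGG, the AP-1 site TGANTCA, the TATA box TATAAA and ACGTG, a form of the hypoxia response core. The other form of that core, GCGTG, was not searched and stands unmarked in the Timp2 and Timp3 windows.
Mmp14, chr14:54431348-54431597, plus strand: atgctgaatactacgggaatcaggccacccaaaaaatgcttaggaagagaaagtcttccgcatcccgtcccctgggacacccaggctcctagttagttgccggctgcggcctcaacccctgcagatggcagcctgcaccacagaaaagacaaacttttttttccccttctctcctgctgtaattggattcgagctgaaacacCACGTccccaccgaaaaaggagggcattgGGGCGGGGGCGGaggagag
Timp2, chr11:118355412-118355661, minus strand: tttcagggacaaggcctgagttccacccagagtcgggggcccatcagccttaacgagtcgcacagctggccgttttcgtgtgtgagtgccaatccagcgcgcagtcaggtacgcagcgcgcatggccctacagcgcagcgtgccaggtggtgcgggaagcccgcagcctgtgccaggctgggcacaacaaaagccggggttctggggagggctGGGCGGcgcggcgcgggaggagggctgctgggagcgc
Timp3, chr10:86300162-86300411, plus strand: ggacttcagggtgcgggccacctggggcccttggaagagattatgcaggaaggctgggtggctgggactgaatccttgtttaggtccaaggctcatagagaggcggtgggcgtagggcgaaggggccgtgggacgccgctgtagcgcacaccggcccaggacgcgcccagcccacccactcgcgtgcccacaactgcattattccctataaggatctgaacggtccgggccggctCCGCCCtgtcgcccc
Mmp3, chr9:7445572-7445821, plus strand: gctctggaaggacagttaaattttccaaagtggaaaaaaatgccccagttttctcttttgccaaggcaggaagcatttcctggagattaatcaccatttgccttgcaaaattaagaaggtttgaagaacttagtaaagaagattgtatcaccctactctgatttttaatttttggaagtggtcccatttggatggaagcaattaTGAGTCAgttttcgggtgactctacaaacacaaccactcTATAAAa
The Mmp14 window held 2 GC boxes, 19 and 13 bases before the start, and an ACGTG 48 bases before it. Timp2 and Timp3 each held 1 GC box, 37 and 15 bases before the start. The Mmp3 window had a match to the AP-1 site 46 bases and a TATAAA 7 bases before the annotated start and no GC box. That TATAAA lies nearer to the annotated start than a TATA box usually does, so it is given as a match of letters only. GC boxes were present in 6 of the 7 members with a window, all but Mmp3, and in 32.7% of all 32851 promoter windows. AP-1 site matches were in 1 of 7 (Mmp3) against 6.75%, TATAAA in 1 of 7 (Mmp3) against 12.4%, and ACGTG in 2 of 7 (Mmp14 and Timp1) against 16.6%. GC content was 55.2%, 68% and 65.6% for Mmp14, Timp2 and Timp3 and 37.6% for Mmp3. The fallen and the uncalled member shared the GC box, so these letters did not separate them.

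The rest of the pericellular proteolysis system was read from 5 lists of genes with known roles. The lists were chosen with earlier results of these data known, so the values over all genes are a reference and not a test. For comparison with the counts of each list, limma called 6.36% of all genes tested lower and 3.99% higher. Of 17 further MMPs and Timp4, 9 were in the table and 4 were tested, with 2 lower and 0 higher by limma. Both encode membrane-anchored MMPs. Mmp16, a membrane-type enzyme, averaged 117 ± 40.3 in the wild-type and 4.63 ± 6.76 in the mfn2-/- group (log2 change -5.06, limma adjusted p 0.00809). Mmp23 had 80.8 ± 38.7 in wild-type libraries and 1 read in all 4 mfn2-/- libraries (limma adjusted p 0.0023). Mmp17 (log2 change -0.45, adjusted p 0.798) and Timp4 (2.22 ± 3.03 against 22.4 ± 15.8, adjusted p 0.295) were not called.

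Among 20 partners of the MMPs (activators, inhibitors, receptors and enhancers), 18 were tested, with 9 lower, 1 higher and 8 not called, and a median log2 change of -1.12 beside -0.16 over all genes. Lrp1, the receptor that clears MMPs and their inhibitor complexes from the cell surface, was the most abundant and went from 13275 ± 692 to 5533 ± 1004 normalized reads (-1.28, limma adjusted p 0.00108). Reck, a membrane-anchored inhibitor of MMP14 and MMP2, went from 183 ± 32.1 to 32.2 ± 12.0 (-2.52, adjusted p 0.00539). Pcolce, the enhancer of procollagen C-proteinase, went from 1258 ± 35.5 to 38.3 ± 25.6 (-5.43, adjusted p 5.24e-05), and Spock2, a testican proteoglycan, from 757 ± 128 to 104 ± 35.9 (-2.93, adjusted p 6.29e-05). Pcsk6, a proprotein convertase, changed by -5.01 (adjusted p 0.00518). Cd44, the hyaluronan receptor that docks MMP14 and MMP9 at the surface, was the higher one, with 401 ± 92.2 against 819 ± 277 (1.00, adjusted p 0.0347), but its call was lost without wild-type replicates 1 (0.0833), 3 (0.0803) or 4 (0.0612) or mfn2-/- replicates 2 (0.0547), 3 (0.109) or 4 (0.0616). Pcsk5, A2m, Spock3 and Pcolce2 were also called lower and were less firm. Pcsk5 (-0.96, 0.0154) lost its call without wild-type replicate 3 (0.0536) or mfn2-/- replicate 2 (0.0518). A2m (-4.97, 0.0218) lost it without wild-type replicate 1 (0.0603), 2 (0.0558), 3 (0.0578) or 4 (0.0596) or mfn2-/- replicate 2 (0.0529). Spock3 (-4.06, 0.0468) lost it without wild-type replicate 1 (0.0854), 2 (0.0764), 3 (0.114) or 4 (0.139) or mfn2-/- replicate 2 (0.0556) or 3 (0.112), and Pcolce2 (-4.39, 0.0413) without wild-type replicate 1 (0.0721), 2 (0.0942), 3 (0.12) or 4 (0.106) or mfn2-/- replicate 3 (0.0908). Cav1 (-0.17, adjusted p 0.681) was not called. Bsg, which induces MMPs in neighboring cells, was not called either (-0.61, adjusted p 0.273), but it was without mfn2-/- replicate 4 (-0.99, 0.00964).

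ADAM and ADAMTS genes moved in both directions. Several of their proteins are proteases inhibited by TIMP3, while ADAM23 lacks the catalytic zinc-binding site. Of 10 ADAM genes tested, Adam9 was higher (783 ± 55.0 against 1420 ± 208, log2 change 0.85, limma adjusted p 0.00846) and 3 were lower, namely Adam19 (-2.08, 0.0151), Adam23 (-6.23, 0.00161) and Adam33 (-4.76, 0.0178, 1 read in all mfn2-/- libraries). Adam19 lost its call without wild-type replicate 3 (0.0535), and Adam33 without wild-type replicate 4 (0.0557) or mfn2-/- replicates 1 (0.0509) or 3 (0.0513). The shedding enzymes Adam10 and Adam17 gave -0.09 each (adjusted p 0.856 and 0.862). Of 15 ADAMTS genes tested, Adamts4, an aggrecanase, was higher (492 ± 190.5 against 1299 ± 510.1, log2 change 1.40, adjusted p 0.0127), with 2.21 in libraries with Y-linked reads and 0.59 in the others. The procollagen N-proteinases Adamts2 (919 ± 99.0 against 23.7 ± 11.8, -5.40, 4.96e-06) and Adamts3 (-5.22, 0.0001) were lower, as were Adamts5 (-1.25, 0.0176) and Adamts12 (-4.78, 0.0109). The Adamts12 call was lost with a pseudocount of 0.1 (0.0604) and without the intensity trend (0.076), and its log2 change was -3.61 with edgeR and -3.75 with DESeq2. Adamts5 lost its call without wild-type replicate 3 (0.062) or 4 (0.0526) or mfn2-/- replicate 3 (0.0505). Adamts1 (-0.26, adjusted p 0.594) and Adamts10 (0.02, adjusted p 0.963) were not called, and Adamts1 differed between the kinds of library, with 0.48 in those with Y-linked reads and -1.01 in the others (interaction adjusted p 0.00618). Of the 2 astacin proteases tested, Bmp1, the procollagen C-proteinase, was lower (1135 ± 174 against 366 ± 123, -1.68, adjusted p 0.000917) and Tll1 was not called (-2.97, 0.158).

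**Figure D4:**
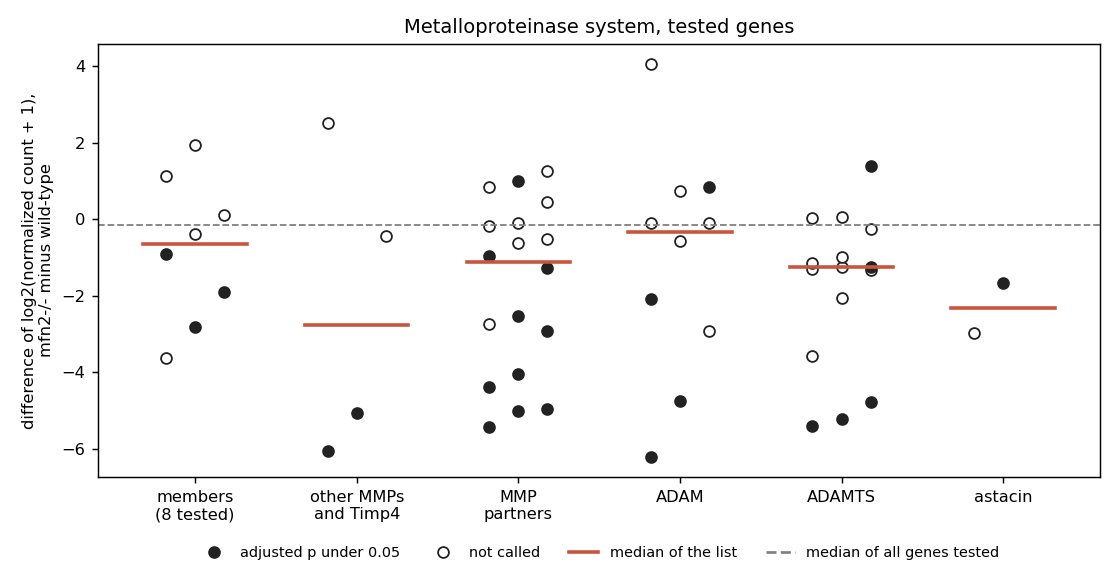
Log2 change, mfn2-/- over wild-type, on the log2(value + 1) scale for each tested gene of the MMP and TIMP members and of the 5 wider lists, with called genes as filled points, the median of each list as a bar and the median of all 11754 genes (-0.16) as a dashed line. The medians of the 5 wider lists lie between -2.76 (other MMPs and Timp4, 4 genes) and -0.33 (ADAM, 10 genes), and Adam9, Adamts4 and Cd44 are the called genes above 0.

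Over the 5 lists 22 genes were called, 19 lower and 3 higher. Of all genes tested, 10.4% were called in either direction, 6.36% lower and 3.99% higher. Leaving out single libraries took the call from 8 of the 22 and left it to 14. Of the 22, 19 were called by edgeR and 13 by limma without the intensity trend, where all 3 higher genes lost their call (adjusted p 0.0905 for Adam9, 0.0982 for Adamts4 and 0.148 for Cd44). The size of several falls moved with single mfn2-/- libraries. Without replicate 4 the log2 change was -5.80 for Mmp16, -3.82 for Pcsk6, -4.70 for Pcolce, -6.16 for A2m, -3.57 for Pcolce2, -3.46 for Spock3 and -3.38 for Adamts12, and without replicate 1 it was -6.82 for Adam23. The falls of Mmp16, Pcolce, Adamts2 and Adamts3 came with those of the fibroadipogenic and tenocyte marker sums given above, and the part of those cells in these changes was not tested.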

How the data were processed

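The authors prepared stranded low-input total RNA libraries from sorted ASCs, 4 wild-type and 4 mfn2-/-. The submitters' processing notes name Trim Galore, HISAT2, featureCounts and DESeq2 and the build mm9, while the annotation and the strand setting are not given in the sources used here. The deposited table holds a linear signal (normalized read counts) for 18877 symbols, for which the authors had divided each library's reads by a size factor of its own. All values (100% per library, within 0.1 read) were whole multiples of the worth of 1 read, so whole reads were recovered.

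Genes with a mean of at least 10 were tested with limma 3.58.1 (R 4.3.3) on a log2 scale with a pseudocount of 1, using a trend of variance with level and Benjamini-Hochberg adjustment over all 11754 genes at 0.05 (two-sided). For genes near 0 the size of a log2 change depends on the pseudocount. Exact permutation tests were two-sided over 70 arrangements. Genotype by presence of Y-linked reads was tested as a limma interaction. Alternatives tried were 3 scalings, pseudocounts of 0.1 and 10, minimum means of 50 or none, a replicate block, no trend, library weights, a term for Y-linked reads, each library left out, and edgeR 4.0.16 and DESeq2 1.42.0 on recovered reads. Exon lengths came from GENCODE M21 (GRCm38), another build than that of the table, and promoters from RefSeq (GRCm38.p6). Counts of 3 reads or fewer were read as the floor, which covers counting error only.

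The members and lists were chosen with earlier results of these data known. Named were all 10 members, Mfn2, every called gene of the 5 wider lists and the 2 most abundant uncalled genes of each. Cx3cr1, Abcc9, Pdgfrb, Cspg4, Des, Myod1, Lum, Gsn, Dpt and Ly6a were named from marker lists after their values were seen. So were Pax7, Myf5, Itga7, Cdh15, Chodl, Fgfr4, Mrc1, Csf1r, Lyz2 and Cd68.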

Additional observations from a re-analysis of the deposited data

Results flagged for a closer look

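For 42 named genes, the gap of the most extreme library of a group to its neighbor was divided by the group's range (Dixon's ratio, 82 groups of 4 values). The ratio passed its 95% critical value in 9 groups. A rate of 1 in 20 would give about 4.1, but that rate assumes normal values. Groups of counts near 0 do not follow it, so the 9 are not read as an excess. Among the members this was Mmp14 in wild-type replicate 1, at 404.8 normalized reads with the other wild-type libraries between 667 and 721 (ratio 0.831). Of the other 8, Mmp16 (14.7), A2m (38.5) and Adamts3 (31.1) were high in mfn2-/- replicate 4, the library with the fewest genes detected (9646). Mmp23 (0.737) in mfn2-/- replicate 3 and Adam33 (0.79) in mfn2-/- replicate 2 were single reads against 0, which fixes the ratio at 1.0. Tll1 was high in mfn2-/- replicate 2 (24.5), Adam9 low in wild-type replicate 1 (700.5) and Adamts2 high in wild-type replicate 3 (1067).

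The genotype change of Adamts1 differed between the libraries with and without Y-linked reads, by 1.49 on the log2 scale (limma interaction adjusted p 0.00618, 2 libraries per group and kind).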

How the results depend on the processing

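Mmp2 and Timp2 kept their direction and their call in all 21 alternatives, with log2 changes of -2.91 to -2.74 and -2.04 to -1.82. Mmp14 kept its direction in all 21 and its call in 11; besides the libraries named above, the call was lost without the filter (adjusted p 0.0611), with equal totals (0.0504), without the trend (0.13) and with edgeR (0.0531). Its cause was not tested. With the replicate block the Mmp14 adjusted p was 0.0504, 2 members were called lower and 1043 genes called in all, against 1217. Libraries sharing a replicate number had correlations of -0.111 to 0.038 in their deviations, 1 of 8 correlated best with its own number, and the numbers were not taken as pairs. Library weights and DESeq2 each called 1 member higher, Mmp19. Over all genes, 1398 were higher and 1639 lower with library weights and 113 higher without the trend. Leaving out single libraries gave 235 (without wild-type replicate 3) to 489 higher and 436 (without wild-type replicate 3) to 842 lower. It moved Mmp15 between -1.27 and 0.14, Adam10 between -0.22 and 0.03, Adam17 between -0.19 and 0.02 and Adamts10 between -0.12 and 0.17. Adamts1 was 0.22 with library weights and Adamts10 -0.09 with quantile normalization. Quantile normalization moved the median of all genes from -0.16 to 0.13. The Timp3 share was 49.0% and 76.0% (wild-type and mfn2-/-) with the longest transcript and 55.8% and 82.9% without length correction. Mmp9 was at or under 3 reads in every library, where a difference was not detectable. Timp1 was called in no fit with a library left out (adjusted p 0.229 to 0.683), nor was Mmp15 (0.45 to 0.987).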
